A study of Homo sapiens with 6 samples.

Results

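The genes described here are 10 regulators and markers of the epithelial to mesenchymal transition (EMT): the transcription factors SNAI1, SNAI2, ZEB1, ZEB2 and TWIST1, the epithelial factor GRHL2, the classical cadherins CDH1, CDH2 and CDH3, and the epithelial surface protein EPCAM. They were chosen by name, with earlier results of these data known. All 10 were found among the 60664 genes of the table, and all 10 were among the 16102 genes that passed the low-count filter. RNA came from HCT-8, an established line of human colorectal cancer cells, and was sequenced in 6 libraries. The shNC group (3 libraries) received a control hairpin plasmid and the shPNISR group (3 libraries) a plasmid with a short hairpin RNA against PNISR, a serine and arginine rich protein of splicing complexes. No further agent is named for either group, and the labels do not say whether the transfected cells were selected, cloned or harvested at a given time. Separate cultures are not mentioned either, so each p-value reflects spread among these libraries alone, part or all of which could be technical.

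PNISR itself fell to 39.7% of its level in shNC (by the quasi-likelihood test of edgeR, Benjamini-Hochberg adjusted p = 8.73e-05), and shares 117 exon bases with the antisense gene AL513550.1. Total counts ran from 15049485 to 17977803 per library. Across all tested genes 371 (2.3%) were called higher and 134 (0.832%) lower in shPNISR, 3.14% in all. On the first principal component shNC 2 stood between the other libraries of both groups (0.787, against -35.2 and -31.2 for the other shNC libraries and 16.9 to 24.6 for shPNISR). Epithelial markers were abundant: KRT8 averaged 2240 CPM (counts scaled to library size) and CDX2 80.3 CPM in shNC. The colonic markers KRT20 and GPA33 had at most 7 and 6 reads in any library. Of the other cell types, PTPRC of leukocytes, TEK of endothelium, and COL1A2 and FAP of fibroblasts had no read in any library.

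In EMT, epithelial cells give up E-cadherin (CDH1) junctions and take on N-cadherin (CDH2), an exchange known as the cadherin switch. SNAI1, SNAI2, ZEB1 and ZEB2 are zinc finger repressors that bind E-box sequences in promoters such as that of CDH1, and TWIST1 is a basic helix-loop-helix factor that can induce CDH2. GRHL2 works against them by keeping epithelial genes active, and it and ZEB1 repress each other. ZEB1 and ZEB2 are in turn held down by the miR-200 family of microRNAs, whose genes ZEB1 represses.

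The sequences through which these factors are known to meet are shown first. The E-box searched here was CAGGTG, read on the other strand as CACCTG, within windows of 300 bases from 250 before to 50 after each RefSeq start (GRCh38.p14). At least 1 copy was found in 20.6% of 35116 such windows. Windows of 3 of the 10 genes were searched. Those of the other members, SNAI2 included, were not examined. Whether any of these members has an E-box near its start was therefore not tested. The 7 windows of ZEB1 held 4 copies, in 2 of the windows, and neither the 2 windows of CDH2 nor the 1 window of ZEB2 held a copy. The ZEB1 window with 3 copies, at chr10:31318966-31319265 on the plus strand, is printed with the E-boxes in capitals.
ZEB1 window: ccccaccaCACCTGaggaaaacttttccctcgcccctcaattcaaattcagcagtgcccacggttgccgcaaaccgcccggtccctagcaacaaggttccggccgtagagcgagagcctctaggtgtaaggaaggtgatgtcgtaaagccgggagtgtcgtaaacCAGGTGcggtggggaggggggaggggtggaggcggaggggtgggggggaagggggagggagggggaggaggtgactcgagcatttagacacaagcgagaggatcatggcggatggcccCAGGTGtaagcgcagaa
These matches are letters in a window and do not show that a factor binds there.

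The miR-200 family falls into 2 seed groups, which are printed from RefSeq with the seed (bases 2 to 8) in capitals because ZEB1 and ZEB2 carry many matches to both.
hsa-miR-141-3p: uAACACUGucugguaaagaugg
hsa-miR-200a-3p: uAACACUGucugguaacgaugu
hsa-miR-200b-3p: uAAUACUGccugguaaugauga
hsa-miR-200c-3p: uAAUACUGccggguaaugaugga
hsa-miR-429: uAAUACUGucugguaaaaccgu
The seed AAUACUG belongs to miR-200b, miR-200c and miR-429, and the seed AACACUG to miR-141 and miR-200a. In the GENCODE 29 transcript with the longest coding sequence, the 3′ untranslated region of ZEB1 (2549 bases) held 6 matches to the first seed and 3 to the second. That of ZEB2 (5370 bases) held 5 and 4. One match of each gene to the first seed is shown in its surroundings, with the seed match in capitals.
ZEB1 site: gtcttcaaacctggCAGTATTa
ZEB2 site: tgaagcacccatgtCAGTATTa
Mature microRNAs were not measured in these libraries. MIR200CHG, the host transcript of miR-200c and miR-141 on chromosome 12, had 7, 9 and 14 reads in shNC 1 to 3, against 31, 20 and 17 reads in shPNISR 1 to 3. Every shPNISR library was above every shNC library in CPM, and the log2 fold change of 1.13 ± 0.41 (SE) did not pass the test (adjusted p = 0.145).

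SNAI2 was the single member of the 10 that passed, and it was lower with shPNISR. At an adjusted p of 0.05 none of the 10 rose, 1 fell and 9 did not pass, beside 2.3% of all tested genes higher and 0.832% lower. The median log2 fold change was -0.10 for the 10 genes and -0.01 for all tested genes. The groups did not overlap for SNAI1 and EPCAM, which were higher in every shPNISR library, nor for SNAI2 and GRHL2, which were lower in every one. Among all tested genes 11.5% were higher and 9.58% lower without overlap. Before adjustment, 5 of the 10 had a p under 0.05, as did 2862 of the 16102 tested genes. In bulk libraries, a change in the share of cells that express a gene and a change in RNA per cell cannot be told apart.

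**Figure D1:**
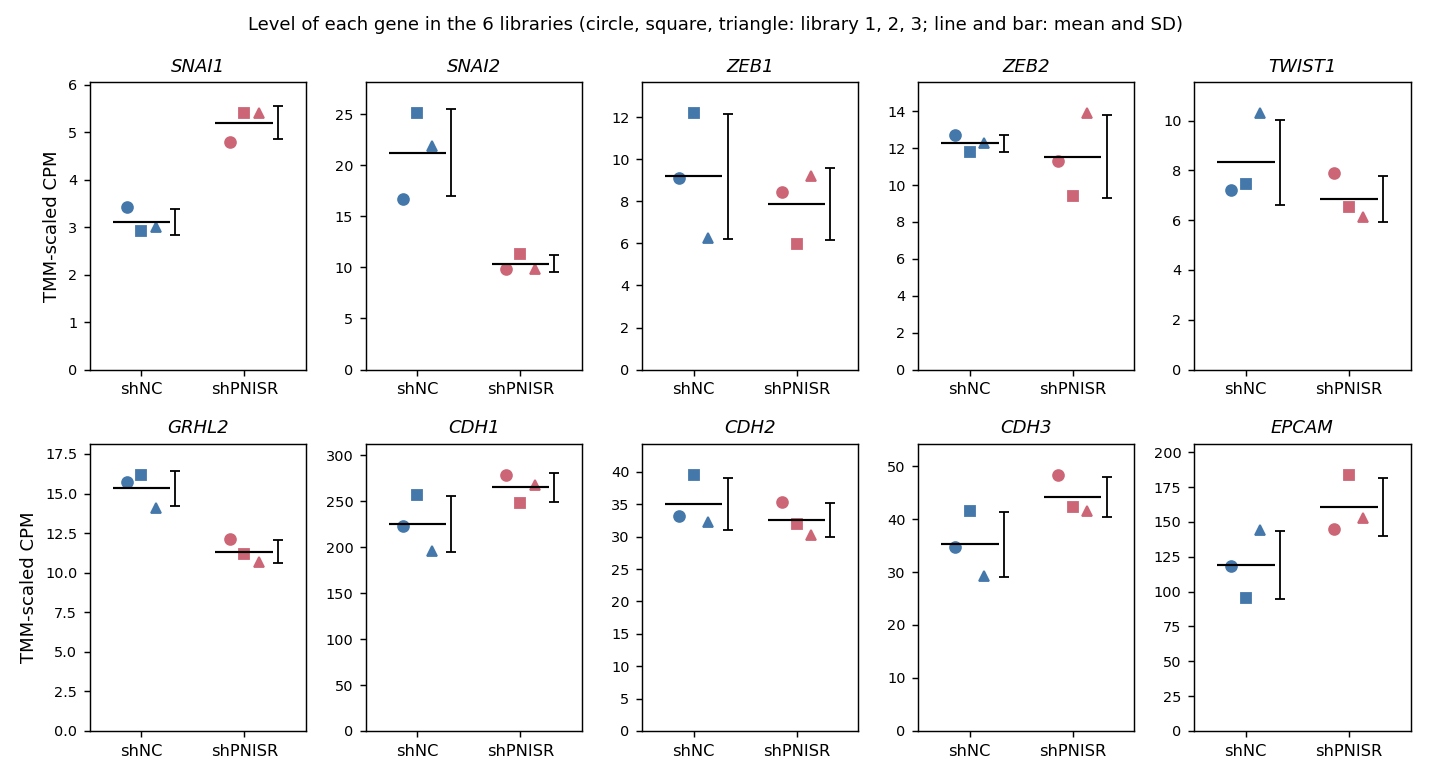
Level of each of the 10 genes (vertical axis, TMM-scaled CPM) in the 3 shNC (blue) and 3 shPNISR (red) libraries, with symbols for library 1, 2 and 3, the group mean as a line and its SD as a bar. SNAI2 lies at 16.7 CPM or more in shNC and at 11.3 CPM or less in shPNISR, while SNAI1 lies the other way round.

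SNAI2 encodes Slug, a Snail-family repressor of neural crest and epithelial cells. Its level was 16.7, 25.1 and 21.9 CPM in shNC 1 to 3 and 9.89, 11.3 and 9.87 CPM in shPNISR 1 to 3. The highest value was that of shNC 2, the library that otherwise lay between the groups, so for SNAI2 this library was farthest from shPNISR. The mean fell from 21.3 ± 4.23 to 10.4 ± 0.848 CPM (SD, n = 3 each), a log2 fold change of -1.03 ± 0.17 (SE, 95% interval -1.39 to -0.68), or 48.9% of the shNC level (adjusted p = 0.00207). The call held under all 18 alternatives, with log2 fold changes from -1.18 to -0.77. SNAI2 (ENSG00000019549) lies on chromosome 8, minus strand, at 48917604 to 48921740 in GRCh38, and shares no exon bases with another GENCODE 29 gene.

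SNAI1 encodes Snail, the paralog of Slug and a repressor of CDH1. Its reads were few, with 62, 45 and 45 counts in shNC 1 to 3, against 81, 87 and 88 counts in shPNISR 1 to 3. In CPM these were 3.42, 2.91 and 3.00 against 4.8, 5.4 and 5.4. All 3 shPNISR libraries were above all 3 shNC libraries. This gave a log2 fold change of 0.74 ± 0.22 (SE, 95% interval 0.28 to 1.19), and SNAI1 did not pass (adjusted p = 0.0746). None of the 18 alternatives brought it past the threshold, with adjusted p from 0.056 to 0.225. SNAI1 (ENSG00000124216) lies on chromosome 20, plus strand, at 49982999 to 49988886.

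The balance between these paralogs differed between the groups in every library. Per kilobase of exon, SNAI2 stood at 2.43, 4.29 and 3.63 times SNAI1 in shNC 1 to 3, and at 1.02, 1.05 and 0.909 times in shPNISR 1 to 3. So SNAI2 was the more abundant of the pair in shNC, and both were at about the same level in shPNISR (3.06 ± 0.250 CPM per kb for SNAI2 and 3.08 ± 0.205 for SNAI1). With the longest coding transcript as the length, SNAI2 was still above SNAI1 in shPNISR (4.27 against 3.08 CPM per kb). The ratio is a description of 2 members chosen by name and was not tested.

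ZEB1 and ZEB2, which can keep carcinoma cells in a mesenchymal state, showed no difference that passed. ZEB1 was at 9.11, 12.2 and 6.26 CPM in shNC 1 to 3 and 8.47, 5.95 and 9.20 CPM in shPNISR 1 to 3. The spread within shNC was wider than the difference of the means, and the log2 fold change was -0.22 with a 95% interval from -0.71 to 0.27 (adjusted p = 0.662). ZEB2 was at 12.7, 11.8 and 12.3 CPM in shNC 1 to 3, against 11.3, 9.43 and 13.9 CPM in shPNISR 1 to 3. Its groups overlapped too, with a log2 fold change of -0.09 and an interval from -0.45 to 0.27 (adjusted p = 0.826). For both, the fitted value changed sign in some alternatives (-0.43 to 0.24 for ZEB1 and -0.25 to 0.17 for ZEB2), and none passed. ZEB1 (ENSG00000148516, chromosome 10, plus strand, 31318495 to 31529814) and ZEB2 (ENSG00000169554, chromosome 2, minus strand, 144364364 to 144524583) each share exon bases with the antisense genes ZEB1-AS1 (366 bases) and ZEB2-AS1. The sources used here give no strand setting for the counting, so such antisense reads, here and for the other genes with a partner on the other strand, cannot be separated.

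TWIST1, whose product acts with the E-box factors TCF3 and TCF4, was at 7.23, 7.44 and 10.3 CPM in shNC 1 to 3 and 7.88, 6.51 and 6.13 CPM in shPNISR 1 to 3. The highest value was that of shNC 3, and shPNISR 1 lay within the shNC range. The log2 fold change was -0.28 ± 0.20 (SE, 95% interval -0.70 to 0.14), and TWIST1 did not pass (adjusted p = 0.492). TWIST1 (ENSG00000122691) lies on chromosome 7, minus strand, at 19020991 to 19117672, where AC003986.2 on the other strand shares 141 exon bases.

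GRHL2, the grainyhead factor that keeps CDH1 and other junction genes active, was at 15.7, 16.2 and 14.1 CPM in shNC 1 to 3. In shPNISR 1 to 3 it was at 12.1, 11.2 and 10.7 CPM, each below every shNC library. For GRHL2 the log2 fold change was -0.44 ± 0.16 (SE, 95% interval -0.77 to -0.11), which did not pass (adjusted p = 0.136). Of the 18 alternatives 1 made the call, the correction for GC content and length with shNC 2 left out (-0.41, adjusted p = 0.0451). GRHL2 (ENSG00000083307) lies on chromosome 8, plus strand, at 101492432 to 101669726, and shares 50 exon bases with AP001207.3 on the other strand.

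**Figure D2:**
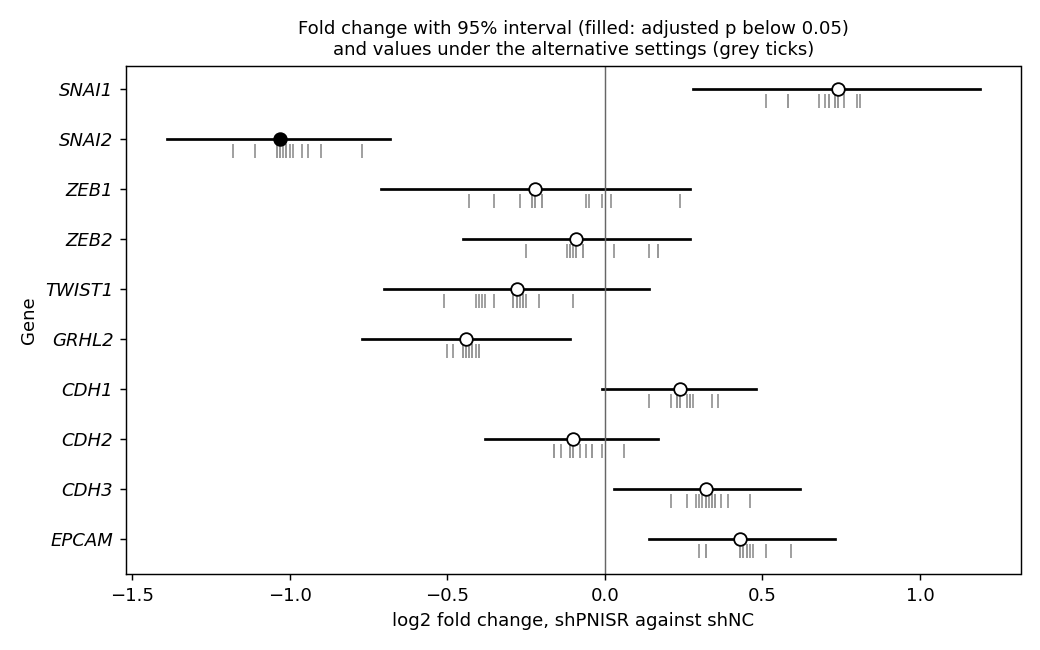
Log2 fold change of shPNISR against shNC (horizontal axis) for each gene, with its 95% interval as a line, a filled circle where the adjusted p was below 0.05, and grey ticks for the values under the alternative settings. The interval of SNAI2 runs from -1.39 to -0.68, and those of ZEB1, ZEB2, TWIST1, CDH1 and CDH2 include 0.

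CDH1 encodes E-cadherin, the calcium-dependent adhesion protein of epithelial junctions. Its level was 223, 257 and 196 CPM in shNC 1 to 3, against 279, 248 and 268 CPM in shPNISR 1 to 3. The library shNC 2 was above shPNISR 2, so the groups overlapped. The log2 fold change was 0.24 ± 0.12 (SE, 95% interval -0.01 to 0.48), which did not pass (adjusted p = 0.299). It was 0.34 without shNC 2 (adjusted p = 0.0665) and 0.36 when the correction for GC content and length was added to that (adjusted p = 0.0111). CDH1 (ENSG00000039068) lies on chromosome 16, plus strand, at 68737225 to 68835548, and shares 347 exon bases with AC099314.1 on the other strand.

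CDH3 encodes P-cadherin, found in basal cells and raised in many carcinomas, and lies beside CDH1 on chromosome 16 (ENSG00000062038, plus strand, 68636189 to 68722616). It was at 34.8, 41.6 and 29.2 CPM in shNC 1 to 3 and 48.4, 42.3 and 41.5 CPM in shPNISR 1 to 3. The library shNC 2 again reached the shPNISR range, just above shPNISR 3. The log2 fold change was 0.32 ± 0.14 (SE, 95% interval 0.03 to 0.62, adjusted p = 0.222). Without shNC 2 it was 0.46 and passed (adjusted p = 0.0279). CDH3 shares 694 exon bases with AC126773.2 on the other strand.

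CDH2 encodes N-cadherin, the partner gained in the cadherin switch. It was at 33.2, 39.6 and 32.2 CPM in shNC 1 to 3 and 35.4, 31.9 and 30.3 CPM in shPNISR 1 to 3. The groups overlapped, with shPNISR 1 above the lower pair of shNC libraries. The log2 fold change was -0.10 ± 0.13 (SE, 95% interval -0.38 to 0.17, adjusted p = 0.722), it ran from -0.16 to 0.06 over the alternatives, and none of these passed. CDH2 (ENSG00000170558) lies on chromosome 18, minus strand, at 27950966 to 28177446, and shares 136 exon bases with AC110015.1 on the other strand.

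Within each library CDH1 exceeded CDH2 per kilobase of exon in both groups. The CDH1 to CDH2 ratio was 5.37, 5.20 and 4.86 in shNC 1 to 3, against 6.31, 6.23 and 7.08 in shPNISR 1 to 3. Every shPNISR library was above every shNC library, including shNC 2, which for CDH1 alone lay within the shPNISR range. The mean ratio was 5.14 ± 0.259 in shNC and 6.54 ± 0.473 in shPNISR (SD, n = 3 each), 1.27 times as high. The difference between the group means was larger than either SD, and the ratio, a score over members, was not tested. The CDH1 to CDH3 ratio overlapped between the groups, at 6.22 to 6.77 in shNC and 5.81 to 6.51 in shPNISR.

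EPCAM encodes an epithelial cell adhesion molecule that is abundant in intestinal epithelium and colorectal carcinoma. It was at 118, 95.4 and 144 CPM in shNC 1 to 3, against 145, 184 and 153 CPM in shPNISR 1 to 3. The groups did not overlap, but shNC 3 and shPNISR 1 nearly met. EPCAM had a log2 fold change of 0.43 ± 0.14 (SE, 95% interval 0.14 to 0.73), which did not pass (adjusted p = 0.103). It passed without shNC 3 (0.59, adjusted p = 0.00358), with no low-count filter (0.43, adjusted p = 0.0158), and with the correction for GC content and length when shNC 2 was left out (0.32, adjusted p = 0.0382). EPCAM (ENSG00000119888) lies on chromosome 2, plus strand, at 47345158 to 47387601.

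**Figure D3:**
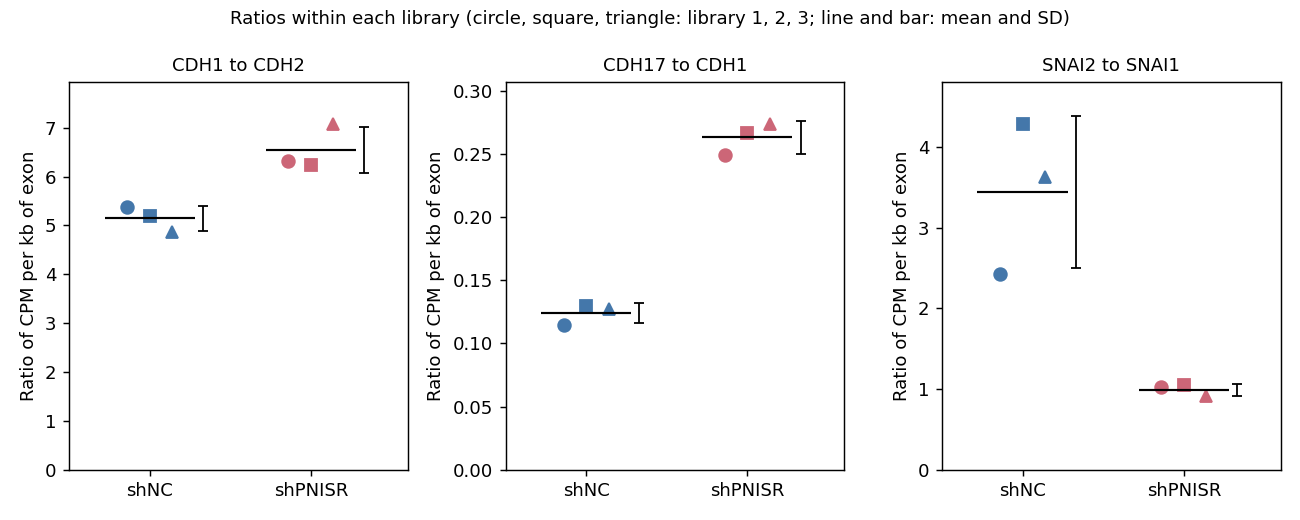
Ratios of CPM per kilobase of exon (vertical axes) within each of the 6 libraries for CDH1 to CDH2, CDH17 to CDH1 and SNAI2 to SNAI1, with the group mean as a line and its SD as a bar. The CDH1 to CDH2 ratio is at most 5.37 in shNC and at least 6.23 in shPNISR.

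Per kilobase of exon EPCAM and CDH1 were the most abundant of the 10 in both groups. In shNC, EPCAM stood at 47.2 and CDH1 at 36.4 CPM per kb, followed by CDH2 (7.07), SNAI2 (6.27), CDH3 (5.64), TWIST1 (4.1), GRHL2 (2.54), SNAI1 (1.85), ZEB1 (1.06) and ZEB2 (0.490). In shNC, SNAI2 did not differ from CDH2 or CDH3 beyond its spread (SD 0.802, 1.25 and 1.00 CPM per kb for CDH2, SNAI2 and CDH3). CDH2 was above CDH3 in each shNC library (6.71, 7.99 and 6.51 against 5.58, 6.68 and 4.68 CPM per kb in shNC 1 to 3). With the longest coding transcript as the length, SNAI2 (8.75) stood above CDH2 (8.08), and ZEB2 (1.28) came close to ZEB1 (1.46), because the annotated exons of ZEB2 add up to 25058 bases. In shPNISR, EPCAM (63.8) and CDH1 (42.9) again came first, followed by CDH3 (7.07) and CDH2 (6.58). TWIST1 (3.36, SD 0.451), SNAI1 (3.08) and SNAI2 (3.06) came next in shPNISR and did not differ beyond their spread.

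The 3 genes of at least 5 CPM most like SNAI2 in their pattern over the 6 libraries were OPN3, SPATA5 and MCCC1, with Pearson correlations of 0.999, 0.995 and 0.991 between log2 CPM values. The 6 points fall into the 2 groups and come from the same libraries for every gene. OPN3 was at 5.47 ± 0.201 CPM with shNC and 4.77 ± 0.0628 CPM with shPNISR, SPATA5 at 15 ± 0.937 and 12.1 ± 0.277 CPM, and MCCC1 at 28.8 ± 2.41 and 22.9 ± 1.15 CPM. Their differences were much smaller than that of SNAI2, and none of the 3 passed (adjusted p 0.646, 0.308 and 0.197).

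The gene lists here and below were chosen with earlier results of these data known. Among other transcription factors that can induce EMT, 15 of 17 genes were tested. None rose and 1 fell, beside 2.3% and 0.832% of all tested genes. That gene was FOXC1, a forkhead factor of mesenchymal development, at 215, 174 and 208 CPM in shNC 1 to 3, against 115, 116 and 123 CPM in shPNISR 1 to 3. Its groups were far apart relative to their spread, with a log2 fold change of -0.75 ± 0.11 (SE, adjusted p = 0.000807), and the call held under all 18 alternatives. The median of the list was -0.14, beside -0.01 for all tested genes. Without shNC 2 the count that fell was 4.

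Of 13 tested epithelial regulators of transcription and splicing, none passed in either direction by edgeR with all 6 libraries and the low-count filter, and the median was -0.15. The 2 most abundant were KLF5, a Krüppel-like factor of intestinal epithelium, at 114 ± 6.42 CPM with shNC and 99.6 ± 2.52 CPM with shPNISR, and EHF, an epithelial ETS factor, at 60.9 ± 5.29 and 60.4 ± 3.24 CPM. ESRP1 and ESRP2, the splicing regulators of epithelial isoforms, were at 3.76 ± 0.840 and 51.7 ± 6.75 CPM in shNC and at 3.94 ± 0.462 and 46.5 ± 4.49 CPM in shPNISR (adjusted p = 0.909 and 0.568). Gene counts do not show the isoforms that these proteins choose.

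Cadherins outside CDH1, CDH2 and CDH3 included 2 genes that rose, beside 2.3% of all tested genes called higher. Of 19 listed, 6 were tested and none fell, and 5 had no read in any library. CDH17, the liver-intestine cadherin, was at 16.2, 21.0 and 15.7 CPM in shNC 1 to 3 and 43.8, 41.9 and 46.4 CPM in shPNISR 1 to 3 (log2 fold change 1.32 ± 0.14, adjusted p = 5.74e-05). Per kilobase of exon its level was 0.115 to 0.130 of that of CDH1 in shNC and 0.249 to 0.274 in shPNISR, without overlap. CDH11, a cadherin of mesenchymal cells and osteoblasts, had 5 reads in each shNC library and 27, 20 and 26 in shPNISR 1 to 3. It rose by a log2 fold change of 2.23 ± 0.41 (adjusted p = 0.00465) but remained scarce, at 1.48 ± 0.206 CPM. CDH4, named after its values were seen, did not pass the low-count filter, with 3, 0 and 1 reads in shNC and 10, 13 and 25 in shPNISR. CDH4 was called higher with no low-count filter (log2 fold change 3.45, adjusted p = 9.64e-05). Without shNC 1, shNC 2, shNC 3 or shPNISR 1, it passed the filter through shPNISR 2 and 3, where it was highest, and was called higher. Without shPNISR 2 or shPNISR 3 it did not pass the filter and was not tested. These calls depend on a filter passed through the higher group and add no separate support. Both calls, of CDH17 and CDH11, held wherever the gene was tested, which a mean of at least 1 CPM prevented for CDH11. With 5 reads in each shNC library, CDH11 passed the low-count filter only through shPNISR, where it was higher. Its entry into the test was thus not independent of its difference.

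Partners of cadherins at the adherens junction showed no call. Of 15 tested genes none rose and none fell by edgeR, and the median was 0.07. CTNNB1, which encodes beta-catenin, was at 553 ± 35.4 CPM with shNC and 509 ± 20.8 CPM with shPNISR, and ACTN4, an actin crosslinker, at 532 ± 41.6 and 656 ± 72.9 CPM (adjusted p = 0.605 and 0.178). Without shNC 2, JUP and NECTIN2 rose and NECTIN3 fell. With 1 library left out, 133 to 1284 genes of the whole table were called higher and 30 to 746 lower.

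**Figure D4:**
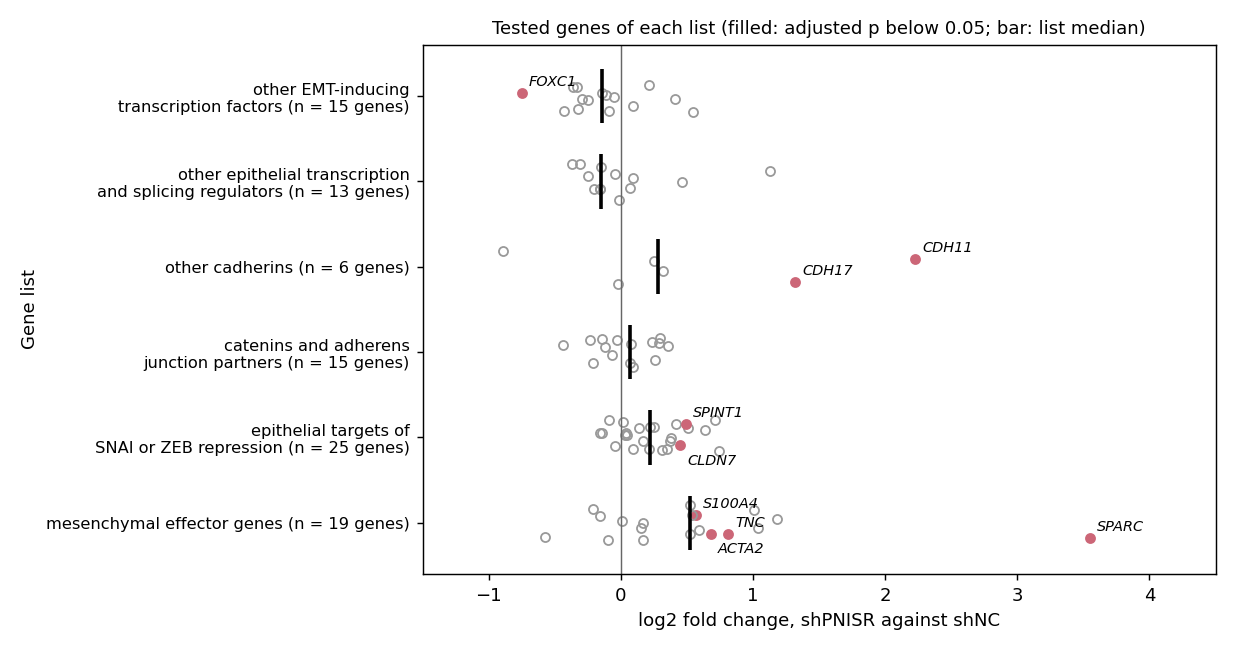
Log2 fold change of shPNISR against shNC (horizontal axis) for the tested genes of 6 lists (vertical axis), with filled red circles and names where the adjusted p was below 0.05 and a bar at the median of each list. FOXC1 is the named gene below 0, and CDH11, CDH17, SPINT1, CLDN7, S100A4, ACTA2, TNC and SPARC are the named genes above it.

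Epithelial genes known as targets of SNAI or ZEB repression had 25 tested members, of which 2 rose and none fell. They were SPINT1, an inhibitor of matriptase, from 85.3 ± 10.4 to 120 ± 8.26 CPM (0.49 ± 0.12, adjusted p = 0.0246), and CLDN7, a tight junction claudin, from 57.1 ± 5.83 to 78.1 ± 7.04 CPM (0.45 ± 0.12, adjusted p = 0.0457). The fitted value was above 0 for 21 of the 25, and the median was 0.22, beside -0.01 for all tested genes. Of the 25, 9 were higher without overlap, beside 11.5% of all tested genes, of which 2.3% were called higher. The mesenchymal effector genes below, the opposite side of EMT, also had mostly fitted values above 0. No member rose without shNC 1 or without any 1 shPNISR library, and 7 rose without shNC 2. CLDN7 missed the threshold in 10 of the 18 alternatives, such as scaling by library totals, and SPINT1 in 5. CLDN4 showed where shNC 2 stood, at 84.5, 143 and 92.8 CPM in shNC 1 to 3, against 158, 183 and 156 CPM in shPNISR 1 to 3 (adjusted p = 0.0569).

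Mesenchymal effector genes had 19 tested members, of which 4 rose and none fell, beside 2.3% of all tested genes called higher. This list too was chosen with earlier results of these data known. It holds SPARC, which ranked 1 by p among all tested genes, so the counts are a description. The median was 0.52, beside -0.01 for all tested genes. The fitted value was above 0 for 15 of the 19, and 9 were higher without overlap, beside 11.5% of all tested genes. SPARC, a secreted matrix glycoprotein, had 14, 13 and 14 reads in shNC and 190, 141 and 162 in shPNISR (3.55 ± 0.25 on the log2 scale, adjusted p = 3.24e-07). TNC, the matrix protein tenascin C (0.81 ± 0.17, adjusted p = 0.0136), S100A4, a calcium-binding protein of motile cells (0.57 ± 0.13, adjusted p = 0.0174), and ACTA2, smooth muscle actin (0.68 ± 0.16, adjusted p = 0.0248), rose less. VIM, the intermediate filament vimentin, was at 662 ± 143 CPM with shNC and 619 ± 61.0 CPM with shPNISR (adjusted p = 0.764), and FN1, fibronectin, at 41.5 ± 15.1 and 46.1 ± 8.36 CPM (adjusted p = 0.811). The calls of TNC ended without shPNISR 1 or 3, those of S100A4 without shNC 1, shPNISR 1 or shPNISR 2, and those of ACTA2 without shNC 1 or any 1 shPNISR library. The count that rose was 1 or 2 without shNC 1 or any 1 shPNISR library and 11 without shNC 2. These counts moved along with those of the whole table, where 133 to 1284 genes were called higher with 1 library left out.

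Fibroblast markers summed to 16.9 to 25.5 CPM in the shNC libraries and 25.2 to 29.6 CPM in the shPNISR libraries, most of it COL1A1 (16.2 ± 3.6 and 23.1 ± 2.68 CPM). None of the 5 tested of 9 passed, COL1A2 and FAP were at 0 in all libraries, and THY1 had 1 read in all. The part of these markers in the values of CDH11, SPARC and TNC was not tested. Colorectal epithelial markers summed to 4040 to 4660 CPM in shNC and 4480 to 5720 CPM in shPNISR. Of 8 tested, CDH17 and KRT19 rose and CDX1 fell, beside 2.3% of all tested genes higher and 0.832% lower. CDH17 is also counted among the cadherins above. The call of KRT19 (0.61 ± 0.15, adjusted p = 0.0365) was lost without shNC 1 or any 1 shPNISR library. It was also lost with the GC content and length correction. That of CDX1 (-1.06 ± 0.21, adjusted p = 0.00798) was lost without shPNISR 1 or 3. Of 5 tested leukocyte markers LYZ fell (-2.05 ± 0.51, adjusted p = 0.0337), beside 0.832% of all tested genes called lower. It had 21 reads or fewer in each shNC library and 8 or fewer in each shPNISR library. LYZ passed the low-count filter only through shNC, where it was higher. Its call was lost with library totals and without any 1 shPNISR library. Leukocyte markers summed to 7.95 to 10.9 CPM in shNC and 10.5 to 12.4 CPM in shPNISR, and endothelial markers to 0.718 to 1.49 and 1.41 to 1.66 CPM.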

How the data were processed

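RNA from 6 HCT-8 libraries was sequenced, and the deposited values are whole-number read counts per Ensembl gene, not normalized by the authors. Per the submitters' processing notes, HISAT2 2.0.4 and GRCh38 were used. The sources used here name no read counter, annotation release or strand setting. Groups came from the sample titles, and each column matched 1 title.

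Genes were filtered with filterByExpr (minimum count 10, minimum total count 15), scaled with TMM factors and tested with edgeR 4.0.16 in R 4.3.3 (robust quasi-likelihood test, two-sided, Benjamini-Hochberg adjustment over 16102 genes, threshold 0.05). Standard errors and 95% intervals came from the fold change, the test statistic and its degrees of freedom. CPM values use the TMM-scaled library size, and lengths and positions come from GENCODE 29 on GRCh38. No pair of libraries in a group agreed within counting noise, and each of the 6 counts as 1 replicate.

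Alternatives were DESeq2 1.42.0 and its size factors, limma 3.58.1 voom, other scalings and filters, no robust dispersion, a replicate block, a correction for GC content and length (loess, span 0.4), and leaving out each library. One, the correction with shNC 2 left out, was added after seeing the data. The members and gene lists were chosen with earlier results of these data known. Named by rule were all members, PNISR, every called gene of the other lists or the 2 most abundant where none was called, and the 3 genes most like a called member; others were chosen after their values were seen. Figures were drawn with matplotlib 3.10.9.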

Additional observations from a re-analysis of the deposited data

How the results depend on the processing

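The call of SNAI2 held under all 18 alternatives, and no called gene named here changed sign. Leaving out 1 library gave 133 to 1284 genes called higher, 30 to 746 called lower, 0 to 1 members called higher (CDH3 without shNC 2, EPCAM without shNC 3) and 1 called lower, and a CDH1 to CDH2 ratio 1.22 to 1.3 times as high in shPNISR as in shNC. With no low-count filter 642 genes were called higher, 354 lower, and 1 member, EPCAM, higher. DESeq2 called 229 genes lower, and library totals 71. Correcting for GC content and length with shNC 2 left out gave 1329 genes higher and 1066 lower, and 3 members higher (CDH1, CDH3 and EPCAM) and 2 lower (SNAI2 and GRHL2). The cause of these differences was not tested. Of the epithelial targets of SNAI or ZEB, 6 rose with no low-count filter or by DESeq2, 4 by limma voom, and 1 with library totals or the correction for GC content and length, beside 2. The same lack of a filter left 9 mesenchymal effector genes higher and 1 lower, beside 4 and 0. No scaling moved the median of all genes beyond -0.017 to 0.011 on the log2 scale.

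The replicate numbers are shared by the groups, and the labels do not say whether they pair the libraries. Correlations of same-numbered deviations were 0.18, -0.15 and -0.25, and those of other pairs ran from -0.38 to 0.54. With deviations taken from the mean of only 3 libraries per group, these correlations cannot decide whether the libraries were paired. With the replicate block 390 genes were called higher and 118 lower, and SNAI2 alone of the members (-1.02, adjusted p = 0.00118). SNAI1, MIR200CHG, CDH4, CDH11 and LYZ rest on few reads, which limits their precision. MIR200CHG and CDH11 passed the low-count filter through shPNISR and LYZ through shNC, in each case the group where the gene was higher.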
